A study of Homo sapiens with 9 samples.

Results

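Nuclear receptors are transcription factors that join a DNA-binding domain of zinc fingers to a ligand-binding domain, and many of them switch genes on or off when a hormone, lipid, bile acid or drug is bound. They read the hexamer AGGTCA or close variants of it, alone or as paired copies, and many pair with a retinoid X receptor. Once on DNA they recruit coactivators, corepressors and chromatin remodelers, and in liver they are known for the control of lipid, bile acid, glucose and drug metabolism and of the daily clock. The genes described here are those that encode the receptors themselves, 44 in all, taken as a list of family members by name, although earlier results of these data were known when the list was made.

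The peaks come from ChIP-seq of untreated HepG2 cells, an established human hepatocellular carcinoma line, so each list describes this single line and no normal hepatocyte. Chromatin was immunoprecipitated for 4 subunits of SWI/SNF, the remodeling complex that uses ATP to move nucleosomes: SNF5 (BAF47), a core subunit, and ARID1A, ARID1B and ARID2, which are alternative subunits that define separate forms. Of the 9 libraries in the series, each antibody had 2 replicates, which the authors merged before peaks were called, and 1 was the input. There was therefore 1 peak list per subunit, with no replicate error and no test between subunits. A difference between lists cannot be told apart from a difference between antibodies or between sequencing depths. The ARID1A list held 12852 peaks, the ARID1B list 8728, the ARID2 list 12995 and the SNF5 list 20718. A gene counts as bound by an ARID where it is the deposited nearest gene of at least 1 peak in that list, and as unbound otherwise. Of 34575 ARID peaks, 119 were assigned to a nuclear receptor gene, 43 from the ARID1A list, 30 from the ARID1B list and 46 from the ARID2 list. The hepatocyte markers and the markers of other cell types were set apart in these lists, with 9 of 11 hepatocyte genes (ALB, APOB and FOXA2 among them) assigned an ARID peak against 1 of 8 blood, muscle and neuron genes.

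At 5 of the receptor genes the peaks of all 3 ARIDs shared bases outside untranslated exons, and these shared stretches are shown because they are the DNA that every ARID form was mapped to. Coordinates are hg19 and each sequence is the plus strand, 5′ to 3′. Capitals mark AGGTCA (the receptor hexamer), TGTTTAC (the FOXA motif) or GGGCGG (the GC box) on either strand.
NR1D1 intron, chr17:38255506-38255627: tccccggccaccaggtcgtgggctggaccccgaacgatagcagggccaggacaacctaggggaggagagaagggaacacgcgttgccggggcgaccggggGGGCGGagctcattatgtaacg
NR1D1 promoter, chr17:38257268-38257567: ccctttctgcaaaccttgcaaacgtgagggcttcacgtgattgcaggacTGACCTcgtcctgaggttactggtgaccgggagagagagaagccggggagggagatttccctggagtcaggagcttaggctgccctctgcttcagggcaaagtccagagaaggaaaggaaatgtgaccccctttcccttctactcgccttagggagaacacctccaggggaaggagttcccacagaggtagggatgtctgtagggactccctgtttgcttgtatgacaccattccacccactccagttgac
RXRB intron, chr6:33167781-33167973: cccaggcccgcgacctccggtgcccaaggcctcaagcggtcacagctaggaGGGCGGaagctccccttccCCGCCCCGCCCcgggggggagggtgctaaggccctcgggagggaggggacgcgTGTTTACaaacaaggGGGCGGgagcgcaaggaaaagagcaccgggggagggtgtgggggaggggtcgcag
NR2F6 promoter, chr19:17357247-17357340: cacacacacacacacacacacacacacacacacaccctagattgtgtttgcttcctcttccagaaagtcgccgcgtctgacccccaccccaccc
ESR1 intron, chr6:151990273-151990341: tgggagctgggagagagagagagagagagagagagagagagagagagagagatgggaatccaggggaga
RXRA intron, chr9:137221062-137221097: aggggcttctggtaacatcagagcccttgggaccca
The NR1D1 promoter stretch is the central 300 bp of a shared 499 bp, lies 426 to 725 bp upstream of the annotated gene start and holds the hexamer once. The NR1D1 intron stretch lies 1215 to 1336 bp downstream of the start. The RXRB stretch lies 469 to 661 bp inside RXRB, in an intron, but the peaks there were assigned to SLC39A7, the zinc transporter gene that runs the other way from the same promoter. The RXRA and ESR1 stretches lie 12118 to 12153 bp and 12447 to 12515 bp inside their genes, and the NR2F6 stretch lies 519 to 612 bp upstream of its start. The ESR1 stretch is largely a GA repeat with an unbroken run of 42 bases, and the NR2F6 stretch opens with a CA repeat of 34 bases. Shared intervals at PPARD (38 bp) and at the RXRB start (235 bp) lay mostly in untranslated exons and are not printed.

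A peak of any ARID was assigned to 27 of the 44 receptor genes, or 61.4% (Wilson 95% interval 46.6 to 74.3), where the same share over 20136 protein-coding gene symbols was 43.7%. ARID1A peaks were assigned to 23 receptor genes (52.3%, 37.9 to 66.2) beside 33.3% of protein-coding genes, ARID2 peaks also to 23 (52.3%) beside 29.7%, and ARID1B peaks to 14 (31.8%, 20.0 to 46.6) beside 17.1%. Peaks of all 3 ARIDs were assigned to 11 genes (25.0%, 14.6 to 39.4) beside 10.1%. In each of these 5 counts the background share lay below the interval for the receptors. The background may be too low, because 19.3% of the gene names in the ARID lists matched no symbol and could not count toward it. All 44 receptor symbols were matched. The part of this loss in the higher shares was not tested. These intervals cover counting error over genes only. The promoter class in the deposited lists held distances under 1000 bp from a transcription start site (TSS), a narrower limit than the study's text gives. The share with a promoter-class peak was 47.7% of receptor genes for ARID1A beside 30.6%, 18.2% for ARID1B beside 10.6%, and 45.5% for ARID2 beside 26.5%. For ARID1B the promoter interval, 9.51 to 32.0%, held the background value.

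**Figure D1:**
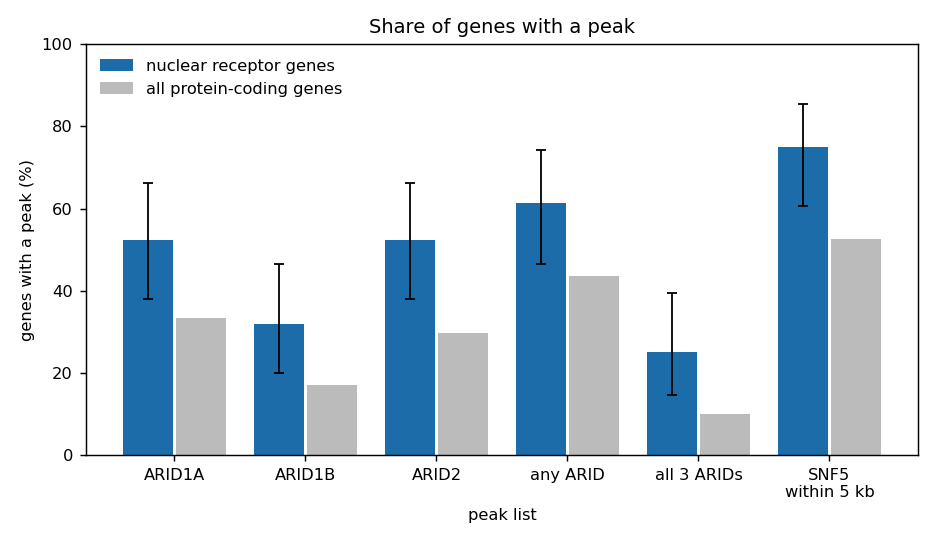
Share of genes with a peak in each list (y axis, percent of genes), for the 44 nuclear receptor genes (blue bars, with Wilson 95% intervals) and for all protein-coding genes (grey bars). The blue bars stand at 52.3%, 31.8%, 52.3%, 61.4%, 25.0% and 75.0%, each above its grey bar, and the lower end of each interval lies above the grey bar.

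The genes differ in size, which bears on a nearest-gene count. The median receptor gene spanned 50932 bp against 27217 bp for protein-coding genes, and the part of length in the higher share was not tested. Within the receptors the bound genes were the shorter group, with a median of 48464 bp against 100190 bp for the 17 unbound. Counted by position instead, 25 receptor genes (56.8%, 42.2 to 70.3) had a peak of some ARID within 1000 bp of an annotated TSS, beside 44.7% of protein-coding genes, a value inside the interval. Within 5000 bp of the gene body the count was 31 (70.5%, 55.8 to 81.8), beside 53.5%, a value below the interval.

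A bound receptor gene carried a median of 3 ARID peaks and a mean of 4.41, against a median of 2 and a mean of 2.92 for the 8808 bound protein-coding genes. The highest counts were 15 at RARA, 11 at NR1D1 and 10 at NR2F6, and these 3 genes are 11.1% of the bound receptors, where 3.03% of bound protein-coding genes had 10 or more. By subfamily, some ARID peak was assigned to 13 of 18 NR1 genes, 6 of 11 NR2 genes, 4 of 8 NR3 genes, 1 of 3 NR4 genes, and 1 of 2 NR0 genes, and to NR5A1 and NR6A1, the only listed genes of their subfamilies. The NR1 group, which holds most of the lipid, thyroid hormone and retinoic acid receptors, took 57 of the 119 peaks.

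**Figure D2:**
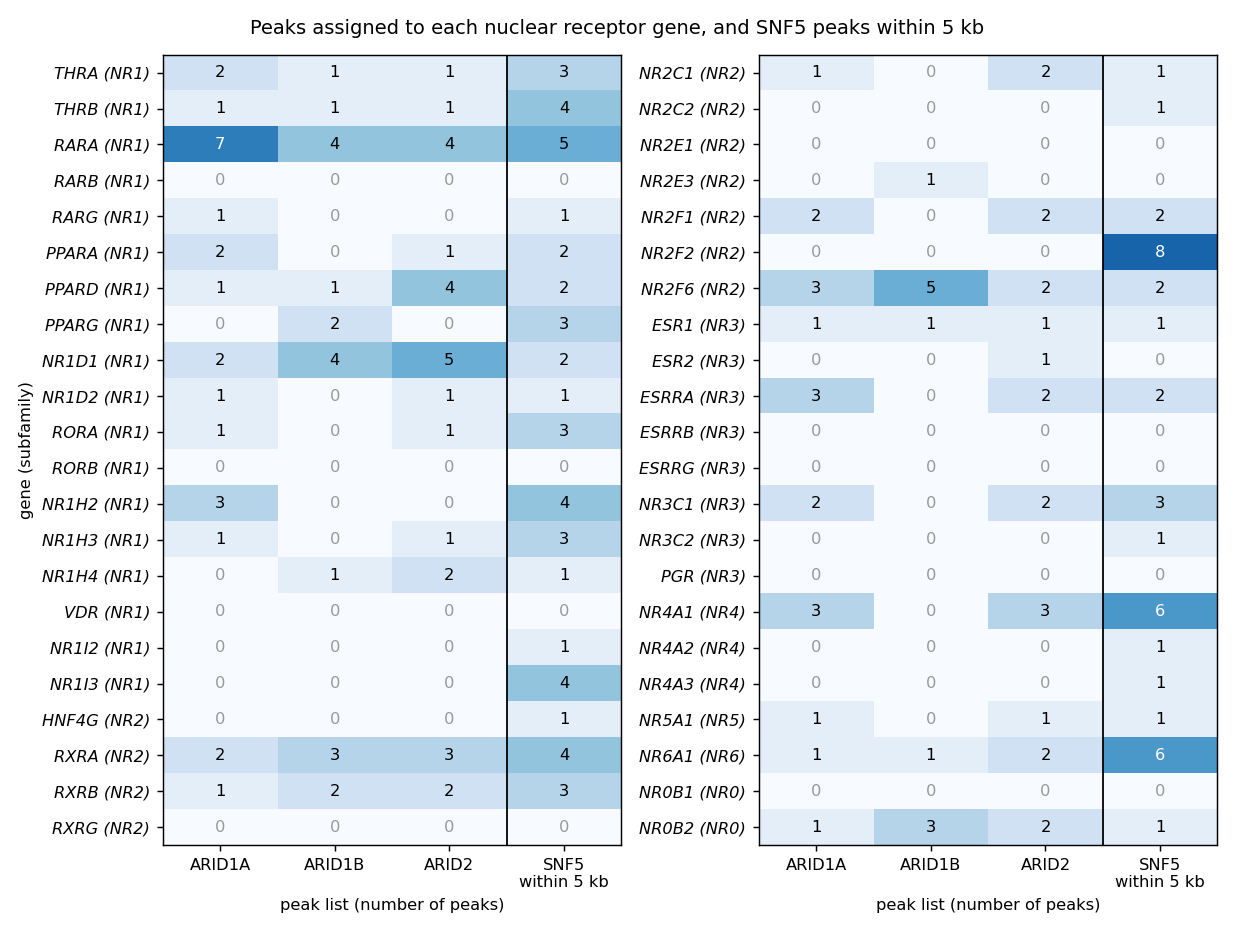
Number of peaks for each of the 44 genes (rows, with subfamily) in the 3 ARID lists, as assigned by the authors, and of SNF5 peaks within 5 kb of the annotated gene (columns). RARA (7, 4 and 4), NR1D1 (2, 4 and 5) and NR2F6 (3, 5 and 2) hold the most ARID peaks, and NR2F2, with 8 SNF5 peaks, has 0 assigned ARID peaks.

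Among the receptors for retinoic acid and thyroid hormone and their shared partners the RXRs, counts ran from 15 at RARA to 0 at RARB and RXRG. RARA, the retinoic acid receptor alpha, had 7 ARID1A, 4 ARID1B and 4 ARID2 peaks, with widths that added up to 2652 bp. They lay in separate clusters rather than on a shared site: ARID1A and ARID2 peaks overlapped each other at 2 internal promoters, ARID1A and ARID1B peaks overlapped each other at 2 further sites toward the 3′ end, and no base was covered by all 3. The 2 clusters with ARID1A and ARID2 lay under SNF5 peaks of 1073 bp (score 21) and 2406 bp (score 24), whereas the 2 with ARID1A and ARID1B shared no base with an SNF5 peak, although SNF5 peaks lay within 1000 bp of both. Here and for the other genes, overlap with SNF5 means at least 1 shared base. The SNF5 score is the whole number that the authors' peak caller gave, with a median of 19 over all SNF5 peaks. RARG had 1 ARID1A peak, 751 bp from the TSS, which lay beside an SNF5 peak without sharing a base, and RARB had none assigned.

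THRA, which encodes thyroid hormone receptor alpha, had 2 ARID1A peaks, 1 ARID1B peak and 1 ARID2 peak, at 4 separate places, of which 1 overlapped an SNF5 peak. THRB, the main thyroid hormone receptor of liver, had 1 peak of each ARID, all in the promoter class and all under the same SNF5 peak (873 bp, score 31). The ARID1A and ARID2 peaks of THRB overlapped and the ARID1B peak lay beside them. A further group of peaks of all 3 ARIDs inside the THRB gene, all overlapping an SNF5 peak of 1724 bp, was assigned to the intronic transcript THRB-IT1 and is not in these counts.

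RXRA, the partner shared by many receptors of liver, had 2 ARID1A, 3 ARID1B and 3 ARID2 peaks, 2 of the 8 in the promoter class. The remaining 6 were intronic, and 4 of the 8 lay under an SNF5 peak of 986 bp (score 27) at the stretch printed above, where all 3 ARIDs overlapped. RXRB had 1 ARID1A, 2 ARID1B and 2 ARID2 peaks, all in the promoter class. The peaks that spanned its start in the ARID1A and ARID2 lists were assigned to SLC39A7, so the count for RXRB is set in part by which of the neighbours was nearer. RXRG had no ARID peak and no SNF5 peak within 5000 bp.

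Among the receptors that sense lipids, bile acids and drugs, counts ran from 6 at PPARD to 0 at NR1I2 and NR1I3. PPARA, the fatty acid receptor that raises fat oxidation in liver, had 2 ARID1A peaks and 1 ARID2 peak, at 258, 153 and 109 bp from a TSS, none of which overlapped another ARID, and 1 of which overlapped SNF5. PPARD had 1 ARID1A, 1 ARID1B and 4 ARID2 peaks. The peaks of all 3 ARIDs met at its promoter, 7, 5 and 141 bp from the TSS, under a narrow SNF5 peak (325 bp, score 18), and the other ARID2 peaks lay alone at 688, 10088 and 17921 bp. PPARG, the receptor that drives fat cell formation, had 2 ARID1B peaks, both intronic and 29346 and 30168 bp from the TSS used by the authors, and no ARID1A or ARID2 peak. The newer Gencode v44 annotation has a PPARG start 3633 and 4543 bp from those peaks.

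NR1H3 (LXR alpha), an oxysterol receptor that governs cholesterol and fat synthesis, had 1 ARID1A and 1 ARID2 peak that overlapped at the promoter, 28 and 46 bp from the TSS, under an SNF5 peak of 1035 bp (score 19). NR1H2 (LXR beta) had 3 ARID1A peaks, all in the promoter class, and none of ARID1B or ARID2. NR1H4, the bile acid receptor FXR, had no ARID1A peak, 1 ARID1B peak and 2 ARID2 peaks. Those 3 did not overlap each other, lay in an intron at 1481, 2171 and 2852 bp, and sat under the same SNF5 peak (1795 bp, score 20). It was the only receptor gene with ARID1B and ARID2 but no ARID1A.

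NR0B2 (SHP), which lacks a DNA-binding domain and represses bile acid synthesis when FXR induces it, had 1 ARID1A, 3 ARID1B and 2 ARID2 peaks on a gene of 2487 bp. The ARID1A peak lay 577 bp from the TSS and overlapped peaks of both other ARIDs without SNF5, while 3 of the 6 peaks lay under an SNF5 peak of 1094 bp (score 33) at the promoter. NR1I2 (PXR), NR1I3 (CAR) and VDR, the receptors for drugs and vitamin D, had no assigned ARID peak. An SNF5 peak overlapped the annotated start of NR1I3, and 4 SNF5 peaks with scores of 16 to 29 lay within 5000 bp of that gene. NR1I2 had 1 SNF5 peak (score 15) and 1 ARID1B peak that was assigned to PHBP8, and VDR had neither within 5000 bp.

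NR1D1 (REV-ERB alpha), a repressor of the circadian clock and of lipid genes, was the receptor gene with the most shared binding. It had 2 ARID1A, 4 ARID1B and 5 ARID2 peaks. Their widths added up to 6374 bp, the largest total of the 44 genes, with bases shared between lists counted more than once. Of these 11 peaks, 9 lay under the same SNF5 peak of 3694 bp (score 38), which ran from inside the gene across its start, and 0.647% of all SNF5 peaks were as wide. The ARID1A peaks, at 1565 and 1344 bp, were the widest of the receptor set, and the 9 peaks fell into 2 regions, each with all 3 ARIDs. The 2 remaining peaks lay upstream, 7550 bp (ARID2) and 10773 bp (ARID1B) from the TSS. THRA and NR1D1 overlap at their 3′ ends, so most of the NR1D1 intron peaks also lie within 5000 bp of THRA. The ARID1B peak at the printed NR1D1 intron stretch does not.

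NR1D2 (REV-ERB beta) had 1 ARID1A and 1 ARID2 peak that overlapped at the promoter under an SNF5 peak of 1798 bp. RORA, which activates the clock genes that REV-ERB represses, had 1 ARID1A peak (1056 bp from the TSS, with SNF5) and 1 ARID2 peak (2145 bp, without), both intronic and not overlapping. RORB had none of the 4 subunits within 5000 bp.

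Among the steroid and estrogen-related receptors, ESR1, the estrogen receptor alpha gene, had 1 peak of each ARID, and all 3 lay at the same intronic place 12452 to 12505 bp from the TSS. They were narrow (122, 122 and 89 bp for ARID1A, ARID1B and ARID2) and each contained the whole GA repeat printed above, within an SNF5 peak of 1293 bp. That SNF5 peak had a score of 45, the highest near any of the 44 genes, and 0.690% of all SNF5 peaks scored as high. ESR2 had 1 ARID2 peak at 178 bp without SNF5. ESRRA, which raises mitochondrial genes, had 3 ARID1A and 2 ARID2 peaks, all in the promoter class, and 4 of the 5 lay under an SNF5 peak of 1799 bp (score 22).

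NR3C1, the glucocorticoid receptor, had 2 ARID1A and 2 ARID2 peaks at its internal promoters, 13 to 165 bp from a TSS, of which 1 of each overlapped the other without SNF5. The gene itself had 3 SNF5 peaks. NR3C2, the mineralocorticoid receptor, had 1 SNF5 peak (score 14), which overlapped an annotated TSS inside the gene, and no ARID peak, and PGR, ESRRB and ESRRG had none of the 4 subunits within 5000 bp.

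The orphan receptors, whose ligands are unknown or disputed, also ranged from many peaks to none. NR2F6 had 3 ARID1A, 5 ARID1B and 2 ARID2 peaks, the most ARID1B peaks of the set, and 8 of the 10 lay upstream of its start under an SNF5 peak of 2249 bp (score 23), while the other 2 lay 1337 and 1666 bp inside the gene. NR2F1 (COUP-TFI) had 2 ARID1A and 2 ARID2 peaks across its start, all under an SNF5 peak of 1034 bp with a score of 37, and no ARID1B peak. NR4A1 (NUR77), an immediate early gene, had 3 ARID1A and 3 ARID2 peaks, and 3 of these met under an SNF5 peak of 1496 bp (score 26) at an internal promoter. NR6A1 had 1 ARID1A, 1 ARID1B and 2 ARID2 peaks, with the ARID1B peak alone in an intron 28027 bp from the TSS. NR2C1 had 1 ARID1A and 2 ARID2 peaks, NR5A1 had 1 of each, and NR2E3 had a single ARID1B peak 22564 bp away.

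The genes with no assigned peak were not all empty by position. Of these 17, NR2C2 and NR2F2 had ARID peaks within 1000 bp of a TSS that carried a neighbour's name. At NR2C2, 2 ARID1A peaks and 1 ARID2 peak were assigned to the neighbour FGD5-AS1, and at NR2F2 (COUP-TFII) 1 ARID1A, 1 ARID1B and 3 ARID2 peaks were assigned to MIR1469, a microRNA inside the gene. RARB, NR1I2 and NR4A3 each had an ARID1B peak within 5000 bp that was assigned elsewhere. The remaining 12 had no ARID peak within 5000 bp and were RORB, VDR and NR1I3 of NR1, HNF4G, RXRG and NR2E1 of NR2, ESRRB, ESRRG, NR3C2 and PGR of NR3, NR4A2, and NR0B1. HNF4G, a hepatocyte nuclear factor 4 paralog, had an SNF5 peak (1145 bp, score 23) across its start.

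SNF5, which had the longest peak list, was the most widely found subunit at these genes. An SNF5 peak lay within 5000 bp of 33 of the 44 gene bodies (75.0%, 60.6 to 85.4), beside 52.6% of protein-coding genes. By the same measure ARID1A peaks lay at 25 genes, ARID1B peaks at 18, ARID2 peaks at 26 and a peak of any ARID at 31. For any ARID this was 70.5% of the receptor genes, beside 53.5% of protein-coding genes. The background at this distance was not counted for each ARID, so the order of the subunits is not shown to be particular to these genes. For 4 genes, NR1I3, HNF4G, NR3C2 and NR4A2 (9.09%, 3.59 to 21.2), SNF5 was there with no ARID peak within that distance, beside 6.05% of protein-coding genes. For NR1I3 this depends on the limit, since its SNF5 peak with a score of 29 overlapped an ARID peak that lay beyond 5000 bp. NR2F2 had 8 SNF5 peaks, the most of any receptor gene, followed by NR4A1 and NR6A1 with 6 each. The 32 SNF5 peaks that overlapped an ARID peak assigned to a receptor had a median score of 21 (15 to 45) and a median width of 1034 bp. Over all SNF5 peaks that overlapped an ARID peak those medians were 22 and 836 bp, so the scores at receptor genes were close to those elsewhere.

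**Figure D3:**
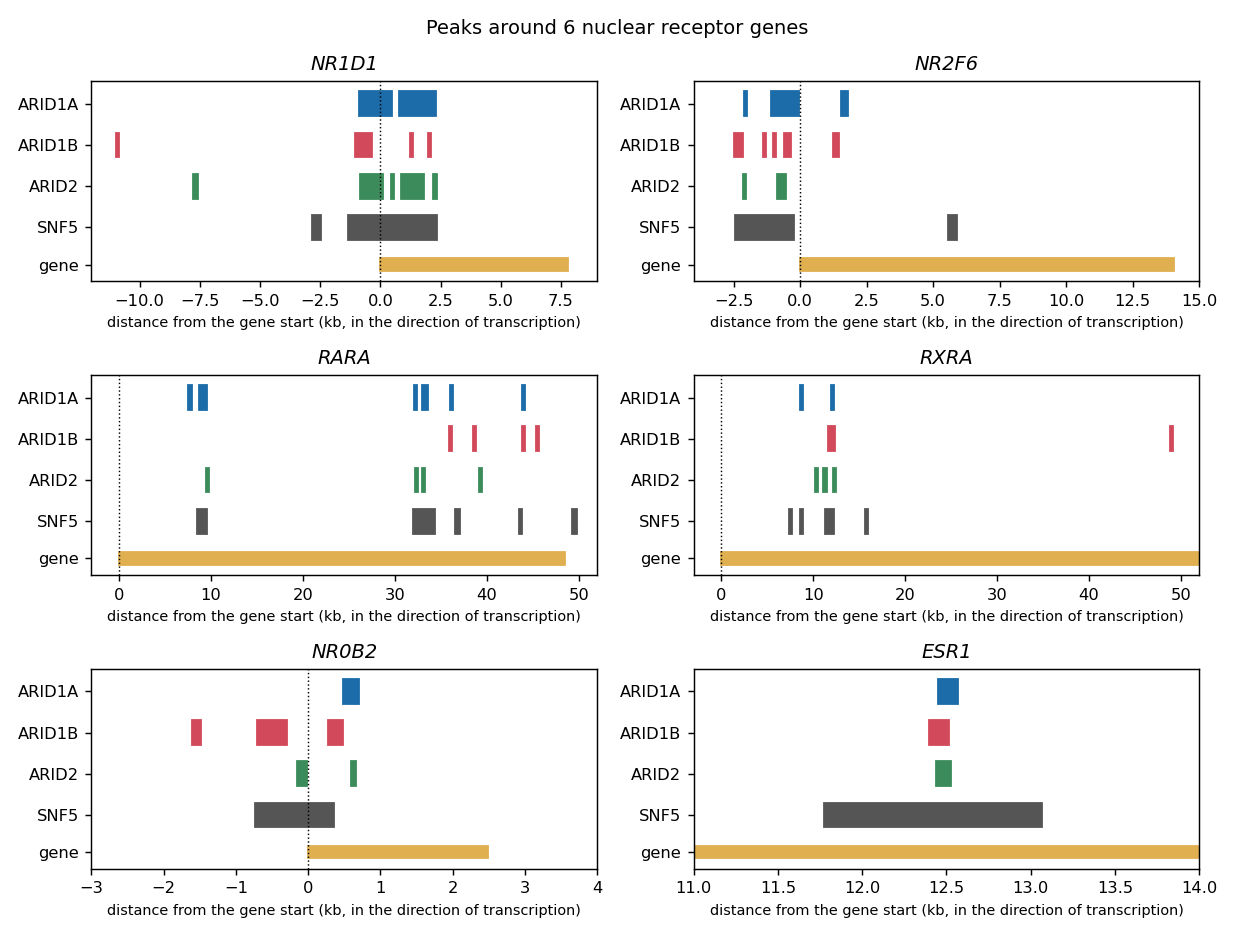
Peaks of each list around 6 receptor genes, by distance from the annotated gene start in kb along the direction of transcription (the dotted line is the start, the ochre bar the gene). ARID peaks are those assigned to the gene and SNF5 peaks those within 5 kb of it, with bars to scale except that the narrowest are drawn at a minimum width. At NR1D1 and NR2F6 most ARID peaks lie over a wide SNF5 peak at the start, at RARA they lie in separate clusters along the gene, and at ESR1, shown from 11 to 14 kb, the peaks of all 3 ARIDs lie at 1 intronic place.

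By feature class, ARID1A had the highest promoter share at these genes and ARID1B the lowest, the order of the whole lists. With only the widest 50% of each list ARID1B was no longer lowest, at 72.7% of 11 peaks. The others stood at 66.7% of 18 peaks for ARID2 and 82.6% of 23 for ARID1A. These counts are small and were given no interval, so that order is uncertain. Promoter-class peaks were 36 of 43 for ARID1A (83.7%, 70.0 to 91.9, beside 72.6% of all ARID1A peaks), 12 of 30 for ARID1B (40.0%, 24.6 to 57.7, beside 37.9%) and 32 of 46 for ARID2 (69.6%, 55.2 to 80.9, beside 67.0%). Each background lay within its interval. Distal peaks were few, with 0 ARID1A, 1 ARID1B and 2 ARID2 peaks, where 12.6%, 25.8% and 13.6% of the whole lists were distal. The Wilson intervals reached 8.20% for ARID1A and 16.7% for ARID1B, below those backgrounds, and 14.5% for ARID2, which held its background. The ARID1B peaks that were not at promoters were mostly of the intron class, at 17 of 30 (56.7%, 39.2 to 72.6). The 33.9% of the whole ARID1B list lay below that interval. This class is the deposited label and is not always an intron of the receptor gene. The ARID1B peaks of this class at NR2F6, NR0B2 and NR2E3 lay upstream of the receptor's annotated start. The intervals take peaks as independent, although several came from the same gene. They may therefore be too narrow, also for the distal shares. Genes with ARID1B intronic peaks included RARA, PPARG, RXRA and NR1D1. The median distance from a peak to the TSS was 183 bp for ARID1A, 1516 bp for ARID1B and 562 bp for ARID2, and 1, 7 and 4 peaks lay over 5000 bp away. Over the whole lists the medians were 235, 2636 and 423 bp. Median widths were 228, 126 and 146 bp at the receptors against 218, 164 and 189 bp in the whole lists.

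**Figure D4:**
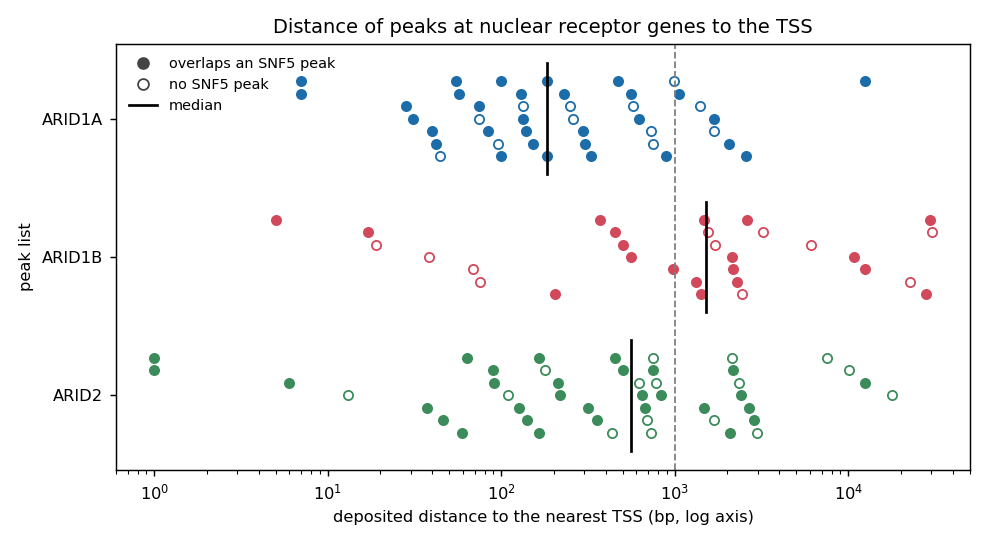
Deposited distance from each of the 119 peaks to the nearest TSS (x axis, bp, log scale) in each ARID list, with filled circles for peaks that overlap an SNF5 peak, open circles for those that do not, and a bar at the median. The dashed line is 1000 bp. The medians stand at 183 bp (ARID1A), 1516 bp (ARID1B) and 562 bp (ARID2), and most ARID1B circles lie to the right of the line.

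SNF5 overlapped 31 of 43 ARID1A peaks at receptor genes (72.1%, 57.3 to 83.3, beside 71.3% of the whole list), 19 of 30 ARID1B peaks (63.3%, 45.5 to 78.1, beside 62.9%) and 30 of 46 ARID2 peaks (65.2%, 50.8 to 77.3, beside 67.2%). Another ARID overlapped 23 of 43 ARID1A peaks (53.5%, 38.9 to 67.5, beside 47.6%), 13 of 30 ARID1B peaks (43.3%, 27.4 to 60.8, beside 40.1%) and 24 of 46 ARID2 peaks (52.2%, 38.1 to 65.9, beside 46.9%). All 6 backgrounds lay within their intervals. These shares are thus near the background of each list.

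**Figure D5:**
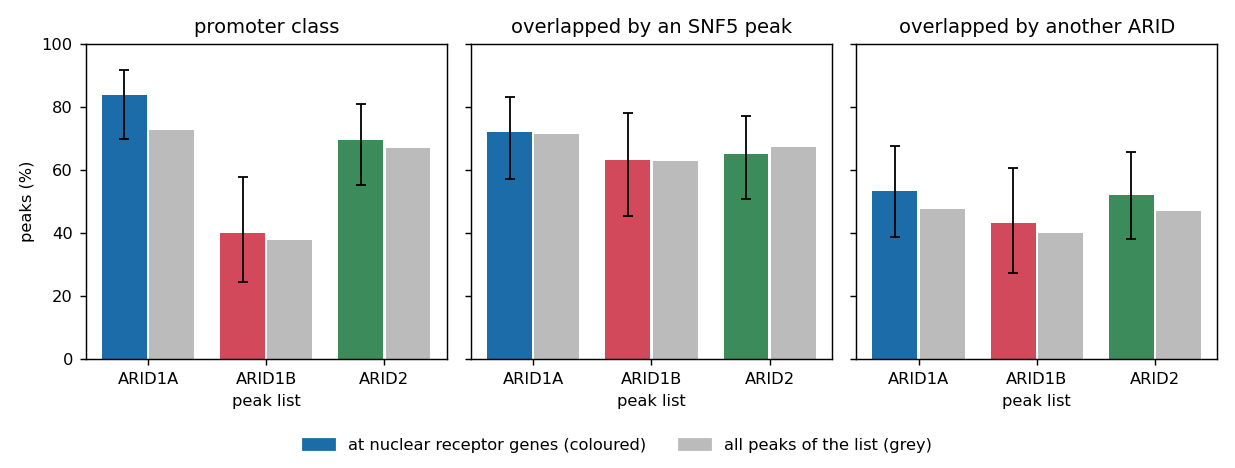
Share of peaks (y axis, percent) that were in the promoter class, overlapped an SNF5 peak or overlapped another ARID, for peaks assigned to receptor genes (coloured bars, with Wilson 95% intervals) and all peaks of the list (grey bars). Every grey bar lies within the interval beside it, from 83.7% against 72.6% for ARID1A promoters to 63.3% against 62.9% for ARID1B with SNF5.

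When overlapping ARID peaks were joined, the receptor genes held 83 regions. ARID1A lay alone in 20 (24.1%, beside 26.7% of all regions in the genome), ARID1B in 17 (20.5%, beside 20.7%) and ARID2 in 22 (26.5%, beside 27.3%). ARID1A and ARID2 met in 13 (15.7%, beside 12.5%) and ARID1A and ARID1B in 2 (2.41%, beside 3.17%). ARID1B and ARID2 met without ARID1A in 0, which allows up to 4.42% by the Wilson interval, beside 2.12%. All 3 met in 9 regions (10.8%, 5.81 to 19.3, beside 7.55% of 25247 regions in the genome), found at PPARD, NR1D1, RXRA, RXRB, NR2F6, ESR1 and NR0B2. The other 4 genes with peaks of all 3 ARIDs, THRA, THRB, RARA and NR6A1, had no region with all 3. Peaks are joined in chains, so the 3 ARIDs of a region need not share a base. They shared none at NR0B2 and at the NR2F6 region of 441 bp. At RXRB the ARID1A and ARID2 peaks of the region were assigned to SLC39A7. SNF5 lay at 9 of the 9 regions with all 3 ARIDs (97.4% of such regions in the genome) and 12 of the 13 with ARID1A and ARID2 (87.6%). It lay at 12 of 20, 8 of 17 and 8 of 22 regions of ARID1A, ARID1B and ARID2 alone (55.1%, 44.5% and 48.5% in the genome), and at 0 of the 2 with ARID1A and ARID1B (87.1%). Joined regions were wider, with a median of 596 bp for all 3 ARIDs and 395 bp for ARID1A with ARID2 against 162, 111 and 128 bp for the lone regions, and the part of width in these counts was not tested.

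In windows of 300 bp centred on each peak, AGGTCA on either strand was found at 8 of 43 ARID1A peaks (18.6%, 9.74 to 32.6, beside 14.5% of the whole list), 6 of 30 ARID1B peaks (20.0%, 9.51 to 37.3, beside 23.5%) and 11 of 46 ARID2 peaks (23.9%, 13.9 to 37.9, beside 15.5%). A direct repeat of AGGTCA with 1 to 5 bases between the copies was found at 0 of the receptor windows and at 0.109%, 0.206% and 0.0462% of all windows. The GC box GGGCGG was found at 60.5%, 20.0% and 52.2% of receptor windows against 53.1%, 27.8% and 39.5% of all windows, and the ETS motif CCGGAA at 30.2%, 6.67% and 17.4% against 19.2%, 10.5% and 15.3%. The AP-1 motif TGANTCA was in 2.33%, 3.33% and 4.35% of receptor windows against 6.49%, 9.70% and 6.87%, and TGTTTAC was in 4.65%, 3.33% and 8.70% against 3.53%, 6.06% and 4.19%. For every motif and list, the share over all windows lay within the Wilson interval of the receptor windows. The median GC content of the windows was 64.7%, 57.5% and 59.8% at the receptors and 63.7%, 51.0% and 56.7% in all windows. These matches describe letters in the window and no site of binding.

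Inside the peaks themselves AGGTCA was found in 20 of 119 receptor peaks (16.8%) and 13.3% of all ARID peaks, and these belonged to 8 genes: PPARD, NR1D1, NR1H4, RXRB, NR2C1, NR2F6, ESRRA and NR0B2. Whole peaks from 2 of them are shown for the position of the hexamer, which alone is in capitals, and were picked after their sequences were seen.
NR1D1, ARID2 peak, chr17:38254482-38254644: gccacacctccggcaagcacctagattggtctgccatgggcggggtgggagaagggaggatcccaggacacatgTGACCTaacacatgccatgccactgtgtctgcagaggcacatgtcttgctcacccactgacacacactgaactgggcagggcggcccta
ESRRA, ARID2 peak, chr11:64072263-64072324: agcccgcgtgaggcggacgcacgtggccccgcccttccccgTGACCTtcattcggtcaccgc
The NR1D1 peak is intronic, 2198 to 2360 bp inside the gene. The ESRRA peak lies 645 to 706 bp upstream of its start.

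A run of at least 20 bases of an alternating pair, as in the GA repeat of ESR1, was present at receptor genes in 3 of 43 peaks for ARID1A, 2 of 30 for ARID1B and 3 of 46 for ARID2 (6.98%, 6.67% and 6.52%), against 0.506%, 0.504% and 0.600% of the whole lists. These 8 peaks came from 3 genes only, ESR1, NR2F6 and NR2F1, so they are not independent, and the measure was chosen after the sequences were seen.

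The genes for the proteins that receptors recruit, a list of 31 coactivators, corepressors and their partners, were also counted. Some ARID peak was assigned to 25 of 31 (80.6%, 63.7 to 90.8), beside 43.7% of protein-coding genes. ARID1A peaks were assigned to 20, ARID1B to 12, ARID2 to 16 and all 3 to 9, where the background shares were 33.3%, 17.1%, 29.7% and 10.1%. SNF5 lay within 5000 bp of 28, beside 52.6%. NCOA4, which also carries ferritin to its breakdown, had 2 ARID1A, 4 ARID1B and 8 ARID2 peaks, the most of the list. The corepressor NCOR1 had 1, 1 and 2 peaks in the 3 lists, and PPARGC1A, the coactivator that raises mitochondrial and gluconeogenic genes, had 1, 2 and 3. MED1, the Mediator subunit that contacts receptors, had 2, 1 and 3. No ARID peak was assigned to PPARGC1B, HDAC3, TBL1X, NSD1, KMT2D or KDM6A.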

How the data were processed

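The 4 deposited peak lists were used, 1 per subunit. Per the study's methods the authors aligned 50 bp single-end reads to hg19 with bowtie2, merged the 2 replicates of each antibody, called broad peaks with MACS2 at a q of 0.01, joined peaks within 100 bp, removed blacklisted regions and assigned each ARID peak its nearest gene in Gencode V16. Whether the input was the control was not given in the sources used here. The score deposited by the authors, from the peak caller, is in the SNF5 list and in 0 ARID lists. No list holds read counts, so depth is unknown.

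Gene positions came from Gencode v44 on GRCh37, the assembly of hg19. All 44 symbols were found in it. Of 12428 gene names in the ARID lists, 74.9% were current symbols, 5.73% matched an older symbol and 19.3% did not match. Starts are printed counted from 1. For 70 of 119 peaks the deposited distance was within 10 bp of the midpoint's distance to a v44 TSS of that gene. Peaks overlapped when they shared 1 bp. The overlap code was checked on simulated intervals with Python 3.11.15 and pandas 2.3.3. Shares carry Wilson 95% intervals, and no test was made. Intervals over peaks, windows or regions take these as independent, although several can come from the same gene. The deposited chromatin state was left out, since overlapping ARID1A and ARID2 peaks had the same state for 51.4% of pairs, where 43.4% would match if unrelated, and the same feature class for 98.2%.

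Genes given with full peak values by rule were those with peaks of all 3 ARIDs, those with 5 or more ARID peaks, and RXRA, PPARA, NR1H4, NR1H3, NR1I2, NR1I3, NR0B2, THRB, RORA, NR1D1, NR3C1, ESR1 and HNF4G, and the remaining members were added more briefly so that each is accounted for. The members, lists and alternatives were chosen with earlier results of these data known.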

Additional observations from a re-analysis of the deposited data

How the results depend on the processing

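Of 72 alternatives over 15 results, 49 stayed within 1.5 times the reported count or within the reported interval, and 23 moved. Depth limits every absence here, since a gene without a peak may have been under the caller's threshold. The number of genes with some ARID peak ran from 20 to 31 and the number with SNF5 from 28 to 33. With the widest 50% of each list, ARID1B genes fell to 8, ARID2 genes to 10 and genes with all 3 to 2. The promoter share of ARID1B became 72.7% of only 11 peaks, above the 66.7% of 18 ARID2 peaks. SNF5 overlap was 87.0% of 23 ARID1A peaks and 81.8% of the 11 ARID1B peaks. A promoter limit of 500 bp gave 67.4% for ARID1A and 47.8% for ARID2, and a limit of 5000 bp gave 97.7%, 76.7% and 91.3% for ARID1A, ARID1B and ARID2. A reciprocal overlap of 50%, which narrow peaks under wide ones cannot reach, gave SNF5 overlap of 9.30%, 3.33% and 2.17% and overlap with another ARID of 20.9%, 13.3% and 17.4% in the same order. A gap of up to 1000 bp gave 97.7%, 83.3% and 91.3% for SNF5 and 72.1%, 73.3% and 82.6% for another ARID. Shares under the distance and overlap limits follow from how wide each limit is. The cause of the changes with the widest peaks was not tested. No paired analysis was possible because the replicates were merged before peaks were called, and no replicate could be left out for the same reason.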
